A study of Mus musculus with 4 samples.

Results

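The 10 genes described here serve protein folding in the endoplasmic reticulum (ER). They are Hspa5, Hsp90b1, Calr, Canx, Pdia3, Pdia4, Pdia6, Dnajb9, Xbp1 and Herpud1. They were chosen by name from a list of ER folding and stress genes, with earlier results of these data known, and all 10 were found among the 40213 gene symbols of the files. The libraries came from RAW264.7, a mouse macrophage cell line. Attached cells were cultured for 48 h before total RNA was extracted. CuNZ@Gel (n = 2 libraries) is read here as the hydrogel that carries CuNZ, which the labels do not spell out, and Gel (n = 2 libraries) as the hydrogel without it. Every sample's treatment text speaks of CuNZ@Gel, and the Gel group was identified by its titles. Separate cultures within a group are not stated, so a p-value reflects variation between libraries that could be purely technical.

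Newly made secretory and membrane proteins enter the ER unfolded, and chaperones, lectins and disulfide isomerases fold them there. When unfolded proteins accumulate, 3 sensors respond. IRE1 splices the Xbp1 mRNA into a form that encodes an active transcription factor, ATF6 is cut to release another, and PERK slows translation and favours the factor ATF4. XBP1 and ATF6 are known to raise ER chaperones and the machinery that disposes of misfolded proteins. Macrophages use this response during activation and in secreting cytokines.

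The series makes 1 comparison, CuNZ@Gel against Gel. Recovered library totals were 14869000 and 14723000 reads for CuNZ@Gel and 14725000 and 13707000 for Gel, rounded to 5 digits. Levels are given in scaled CPM, which is CPM (reads set to a common library total) divided by 1 further factor per library. A change is a difference of mean log2(scaled CPM + 1), CuNZ@Gel minus Gel, with its standard error (SE) from limma, and a gene was called at an adjusted p under 0.05 over the 11588 genes tested. Of those genes 67.1% were called, 32.2% as raised and 34.8% as lowered. Scaling by total reads only moved the median change of all genes by 0.18. It gave 5036 raised and 2869 lowered genes, against 3737 and 4033. Mitochondrial and ribosomal RNA genes took 18.7% and 18.1% of the summed level in CuNZ@Gel, against 20.9% and 22.1% in Gel. Of 10 macrophage markers, 9 passed the filter on low values, and Mertk did not. Their summed level was 9164 and 8924 scaled CPM in CuNZ@Gel and 5665 and 5833 in Gel, with 6 markers raised and 2 lowered. Markers of other cell types were low. Endothelial markers summed to 2.65 and 1.84 scaled CPM in CuNZ@Gel and to 0.0725 and 0.155 in Gel. Pecam1, the only one tested, was called raised, but it passed the filter only through CuNZ@Gel. It measured 2.21 and 1.4 scaled CPM there and 0.0725 and 0.0777 in Gel. T cell markers summed to 0.882 and 0.762 scaled CPM in CuNZ@Gel and to 0.362 and 0.389 in Gel. Sums in CuNZ@Gel and Gel were at most 1.2 and 0.145 for B and plasma cells, 0.19 and 0.311 for fibroblasts, and 0.571 and 1.48 for epithelium. Cd3e and Ms4a1 were at 0 in all 4 libraries. The part of these differences in the results was not tested.

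The 10 ER genes did not move as 1 group. The lectin Calr and the chaperone Hsp90b1 were higher in CuNZ@Gel, as were the lectin Canx, the disulfide isomerases Pdia3 and Pdia4 and the co-chaperone Dnajb9. The transcription factor gene Xbp1 and the degradation factor gene Herpud1 were lower. Hspa5, the chaperone whose rise is the usual sign of the unfolded protein response, did not pass the test, nor did Pdia6. Of the 10 genes 8 were called, against 67.1% of all tested genes. Raised were 6 of the 10, against 32.2%, and lowered were 2, against 34.8%. The median change of the 10 was 0.30, and that of all tested genes -0.03. For 9 of the 10 genes the libraries of the 2 groups lay apart, and this held for 83.2% of all tested genes. In bulk libraries, a change in RNA per cell and a change in the share of cells that use a gene cannot be told apart.

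**Figure D1:**
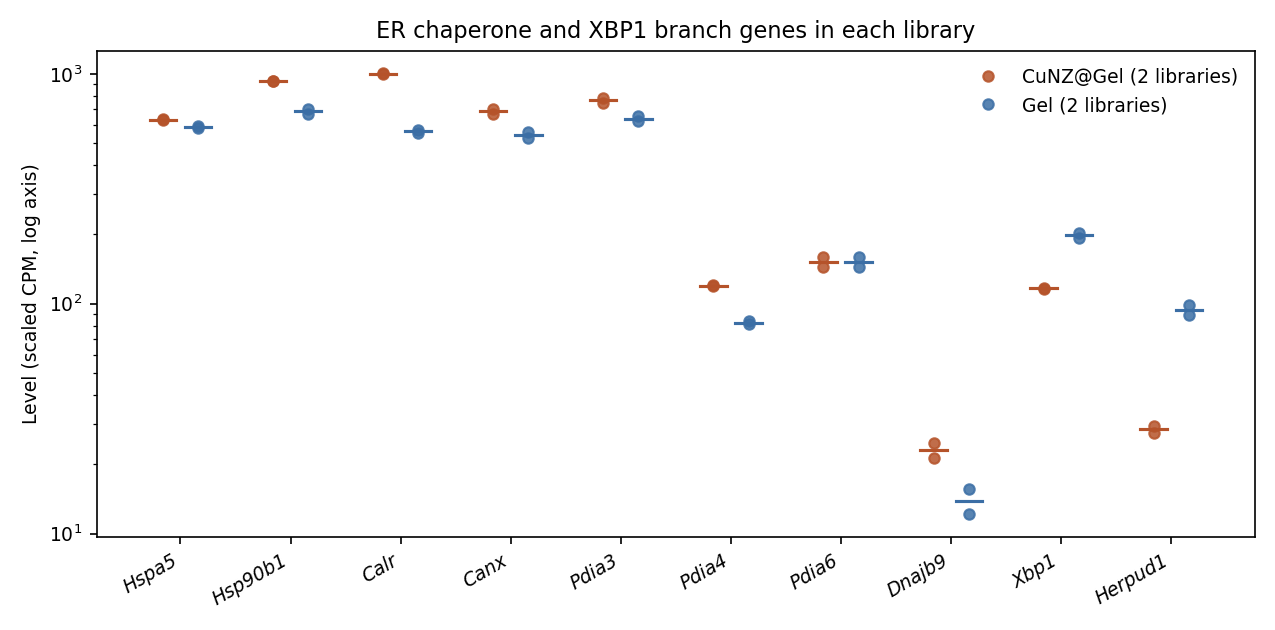
Level of each of the 10 genes in every library, in scaled CPM on a log axis, with CuNZ@Gel left of Gel, a point per library and a short line at the mean of each group. The groups overlap for Pdia6, where CuNZ@Gel averaged 151 and Gel 152 scaled CPM, whereas Xbp1 and Herpud1 lie lower in both CuNZ@Gel libraries.

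Hspa5 encodes BiP, the ER member of the HSP70 family, which binds nascent chains and holds the 3 stress sensors inactive. Its level was 628 and 634 scaled CPM in CuNZ@Gel, against 584 and 595 in Gel. Both CuNZ@Gel libraries lay above both Gel libraries, but by a small step. The change was 0.10 (95% confidence interval -0.02 to 0.22, adjusted p = 0.138). It passed the test under scaling by total reads only (0.29, or 0.11 after subtracting the shift of all genes) and when mitochondrial and ribosomal RNA genes were left out (0.23, or 0.10 after that setting's shift).

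Hsp90b1 encodes GRP94, the HSP90 of the ER lumen, whose clients include Toll-like receptors and integrins of macrophages. It measured 928 and 932 scaled CPM in CuNZ@Gel, against 706 and 671 in Gel, a 1.35-fold difference of the means. The CuNZ@Gel libraries were nearly equal and both lay above the Gel libraries. The change was 0.43 (SE 0.0585, adjusted p = 1.38e-06). On the log2 scale, the ratio of Hsp90b1 to Hspa5 within a library was 0.56 and 0.56 in CuNZ@Gel, against 0.27 and 0.17 in Gel, so both CuNZ@Gel libraries held more Hsp90b1 per Hspa5. This ratio was not tested.

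Dnajb9 encodes ERdj4, a J-domain co-chaperone of BiP that is known to feed BiP back onto IRE1. It measured 24.8 and 21.3 scaled CPM in CuNZ@Gel, against 12.1 and 15.6 in Gel. These values rest on the fewest reads of the 10 genes, 394 and 336 recovered reads in CuNZ@Gel and 167 and 200 in Gel. Both CuNZ@Gel libraries were higher, and Dnajb9 had the largest SE of the 10 changes. The change was 0.70 (SE 0.129, 95% confidence interval 0.44 to 0.97, adjusted p = 6.26e-05).

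Calr and Canx encode calreticulin and calnexin, the soluble and the membrane-bound lectin that hold glycoproteins for folding. Calr had the largest rise of the 10 genes with all libraries, and Dnajb9 had it without Gel replicate 2 (0.87, against 0.81 for Calr). It measured 994 and 1010 scaled CPM in CuNZ@Gel, against 571 and 554 in Gel, a 1.78-fold difference with a change of 0.83 (SE 0.0577, adjusted p = 5.84e-11). Of all tested genes, 10.1% had a higher change than Calr. Canx measured 704 and 669 scaled CPM in CuNZ@Gel, against 525 and 559 in Gel, with a change of 0.34 (SE 0.0599, adjusted p = 4.11e-05). Both lectins were higher in both CuNZ@Gel libraries, yet not to the same extent. The log2 ratio of Calr to Canx was 0.50 and 0.59 in CuNZ@Gel, against 0.12 and -0.01 in Gel, which was not tested. In a fit corrected for transcript length and GC content, Canx changed by 0.18 and still passed (adjusted p = 0.00209).

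The protein disulfide isomerases differed among themselves. Pdia3, or ERp57, forms disulfides in glycoproteins that calreticulin and calnexin hold. It measured 749 and 783 scaled CPM in CuNZ@Gel, against 655 and 623 in Gel (change 0.26, SE 0.0591, adjusted p = 5.59e-04). Pdia4, or ERp72, measured 120 and 119 scaled CPM in CuNZ@Gel, against 81.7 and 83.9 in Gel (change 0.53, SE 0.0682, adjusted p = 8.47e-07). Both were higher in each CuNZ@Gel library. Pdia6, or P5, which also acts on IRE1, measured 144 and 159 scaled CPM in CuNZ@Gel, against 160 and 144 in Gel. The groups overlapped, and the change was -0.01 (95% confidence interval -0.15 to 0.14, adjusted p = 0.952). Scaling by total reads only turned it to 0.18 (adjusted p = 0.0311), or 0.00 after subtracting the shift of all genes, and the length and GC correction turned it to 0.11 (adjusted p = 0.119).

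Xbp1 was lowered, unlike the chaperones, lectins and isomerases above. It measured 117 and 116 scaled CPM in CuNZ@Gel, against 194 and 203 in Gel, a ratio of the means of 0.586. Both CuNZ@Gel libraries were lower and lay close together. The change was -0.77 (SE 0.0638, adjusted p = 1.08e-09), and it ranged from -0.80 to -0.58 over the 16 alternatives, in each of which Xbp1 was lowered. The files hold 1 value per gene, so spliced and unspliced Xbp1 mRNA were not separated. Within a library, the log2 ratio of Dnajb9 to Xbp1 was -2.23 and -2.44 in CuNZ@Gel, against -4.01 and -3.70 in Gel. Per unit of Xbp1 mRNA there was thus more Dnajb9 in both CuNZ@Gel libraries, a ratio that was not tested.

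Herpud1 encodes Herp, an ER membrane protein that helps assemble the ubiquitin ligase complex of ER-associated degradation. It had the largest change of the 10 genes. It measured 29.3 and 27.4 scaled CPM in CuNZ@Gel, against 89.1 and 98.7 in Gel, a ratio of the means of 0.302. The lower of the Gel libraries was far above both CuNZ@Gel libraries. The change was -1.69 (SE 0.084, adjusted p = 2.93e-13), and 0.984% of all tested genes had a lower one. Ddit3, the PERK and ATF4 branch factor CHOP, averaged 26.8 ± 1.97 scaled CPM in CuNZ@Gel and 204 ± 8.64 in Gel (SD, n = 2 each), a change of -2.88. The log2 ratio of Herpud1 to Ddit3 was 0.21 and -0.04 in CuNZ@Gel, against -1.24 and -1.0 in Gel, so that Ddit3 was lower by more than Herpud1 in these libraries.

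**Figure D2:**
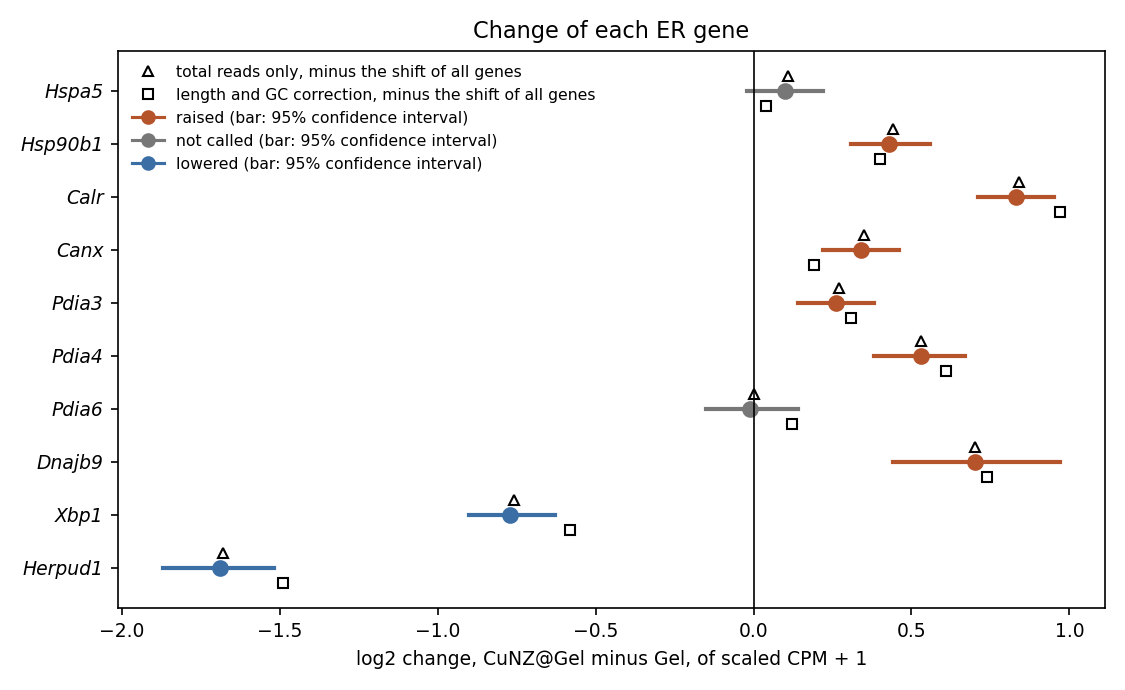
Change of each gene as log2 of scaled CPM + 1, CuNZ@Gel minus Gel, with the 95% confidence interval from limma; triangles and squares give the change with libraries scaled by total reads only and after the length and GC correction, each minus the shift of the median of all genes. Calr (0.83) and Dnajb9 (0.70) lie highest, Xbp1 (-0.77) and Herpud1 (-1.69) lowest, and the intervals of Hspa5 and Pdia6 cross 0.

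Divided by the length of the longest GENCODE transcript, levels in CuNZ@Gel ran from 459 ± 5.17 scaled CPM per kb for Calr to 9.38 ± 1.01 for Dnajb9 (SD, n = 2). In Gel they ran from 258 ± 5.31 for Calr to 5.62 ± 1.0 for Dnajb9. The order in CuNZ@Gel was Calr, Hsp90b1, Pdia3, Hspa5, Canx, Pdia6, Xbp1, Pdia4, Herpud1 and Dnajb9. In Gel it was Calr, Pdia3, Hsp90b1, Hspa5, Canx, Xbp1, Pdia6, Herpud1, Pdia4 and Dnajb9. No neighbours in either order overlapped in their 2 libraries, but a choice of another transcript would move these per-length levels. Neighbouring ranks were exchanged for 3 pairs, Hsp90b1 with Pdia3, Pdia6 with Xbp1, and Pdia4 with Herpud1. The 10 genes together took 0.473% and 0.478% of the library in CuNZ@Gel, against 0.335% and 0.332% in Gel. In CuNZ@Gel they held more of the library in both replicates. This share follows the library total, and scaling by total reads only moved the median change of all genes by 0.18. In scaled CPM the 10 genes summed to 4437 and 4469 in CuNZ@Gel, against 3578 and 3546 in Gel, a smaller difference.

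Of the 10 genes, 5 share a promoter element. The ER stress response element (ERSE) is bound by the factor NF-Y at its CCAAT part and by ATF6 or XBP1 at its CCACG part. The 250 bases before the annotated start, from RefSeq on GRCm38.p6, were searched on both strands for CCAAT and CCACG separated by 9 bases of any kind, and all 10 genes had an entry. All motifs were chosen with the changes of these genes known. The element was found in these 5 genes, and in 0.113% of all 32851 promoter windows of the same length. It is known from promoters of ER chaperone genes, so these matches are not an independent result. The letters are shown because the genes that carry them changed by different amounts. Each is written in the direction of the motif, with the fixed letters in capitals.
Hspa5: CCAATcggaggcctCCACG
Hsp90b1, farther from the start: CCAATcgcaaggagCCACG
Hsp90b1, nearer to the start: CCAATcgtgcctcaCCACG
Calr: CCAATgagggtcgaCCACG
Canx: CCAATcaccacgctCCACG
Pdia6: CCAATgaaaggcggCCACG

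In Hspa5 the element began 65 bases before the start, on the strand of the gene. Hsp90b1 had 1 on each strand, beginning 212 and 107 bases before the start. Of the 5 genes with a match, Calr, Hsp90b1 and Canx were raised and Hspa5 and Pdia6 did not pass, so the changes of the 5 ran from -0.01 to 0.83. Pdia3, Pdia4, Dnajb9 and Xbp1 had no match to these letters in this window, which says nothing of the factors. None of the 10 windows held TGACGTGG, a core of the XBP1-bound unfolded protein response element, found in 0.563% of all windows. The windows of Calr, which changed most among the genes with the element, and of Hspa5, which has it and did not pass the test, are printed on the strand of the gene with the element in capitals. In Calr the element lies on the opposite strand and reads as its reverse complement. Calr lies at chr8:84846932-84847181 on the minus strand and Hspa5 at chr2:34771840-34772089 on the plus strand.
Calr: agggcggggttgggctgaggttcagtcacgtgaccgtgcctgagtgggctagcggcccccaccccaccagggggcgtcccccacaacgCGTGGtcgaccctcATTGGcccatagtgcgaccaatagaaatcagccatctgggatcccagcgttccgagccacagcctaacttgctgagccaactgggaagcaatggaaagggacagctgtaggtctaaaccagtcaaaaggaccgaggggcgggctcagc
Hspa5: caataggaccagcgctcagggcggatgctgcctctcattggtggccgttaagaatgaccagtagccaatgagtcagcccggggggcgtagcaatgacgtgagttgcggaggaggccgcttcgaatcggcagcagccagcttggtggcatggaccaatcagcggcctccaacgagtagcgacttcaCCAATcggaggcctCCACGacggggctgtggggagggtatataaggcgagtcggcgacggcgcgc

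Herpud1 carried other elements. Its window held ATTGG and CCACG separated by 1 base, the ERSE-II element known from this gene, 52 to 42 bases before the start, a motif found in 0.0304% of all windows. It also held TGATGNAA, the shared core of C/EBP-ATF response elements (CARE) bound by ATF4, on the opposite strand 112 to 105 bases before the start, and 3.45% of all windows did. None of the other 9 genes had a match to it, and of 16 genes of the PERK and ATF4 branch with a promoter entry, 5 did (Asns, Atf3, Chac1, Nupr1 and Vldlr). Vldlr had at most 2 reads in any library and was not tested. The branch list was made of genes known from the ATF4 branch, so these matches are not an independent result. The Herpud1 window lies at chr8:94386179-94386428 on the plus strand. It is shown because it is the promoter of the gene with the largest change. The fixed letters of both Herpud1 elements are in capitals, the CARE core as its reverse complement. Of 9 further gene symbols with an ERSE-II match, 6 were tested, of which 1 was raised and 2 were lowered (median change -0.04). A match is a description of letters, and binding was not measured.
Herpud1: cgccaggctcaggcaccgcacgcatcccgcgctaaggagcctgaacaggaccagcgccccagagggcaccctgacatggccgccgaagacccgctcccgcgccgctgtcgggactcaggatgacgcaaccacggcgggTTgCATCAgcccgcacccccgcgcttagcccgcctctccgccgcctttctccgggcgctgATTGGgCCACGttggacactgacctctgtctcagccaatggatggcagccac

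**Figure D3:**
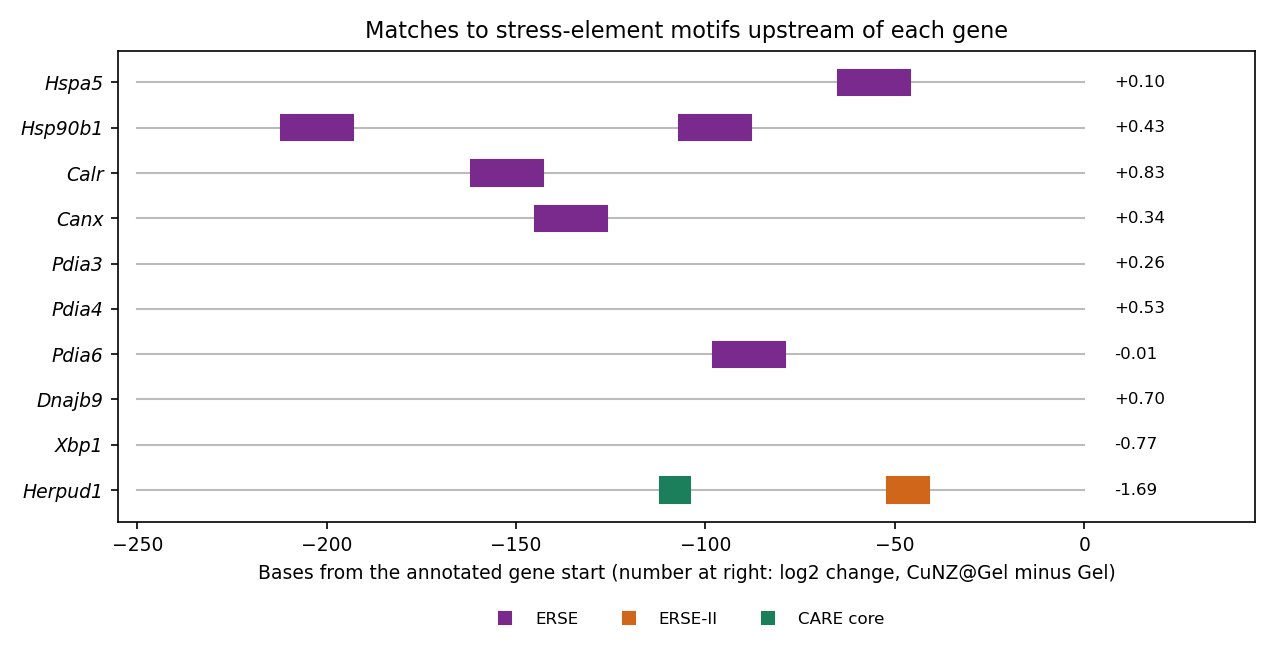
Position of motif matches in the 250 bases before the annotated start of each gene, in bases from the start, with boxes for ERSE, ERSE-II and the core of C/EBP-ATF response elements (CARE); the number at the right is the log2 change, CuNZ@Gel minus Gel. The 5 genes with an ERSE changed by -0.01 to 0.83, and Herpud1, with an ERSE-II and a CARE core, by -1.69. A link between matches and changes was not tested.

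The sensors upstream of these genes were not raised together. Of 12 tested genes for sensors and their processing, 2 were raised and 5 lowered (median -0.04). With total reads only, 5 were raised and 3 lowered (median 0.14). Ern1, which encodes IRE1, averaged 27.2 ± 0.814 scaled CPM in CuNZ@Gel and 39.4 ± 3.26 in Gel (SD, n = 2 each), a change of -0.52 (adjusted p = 6.97e-05). Rtcb, the ligase that joins the spliced Xbp1 mRNA, changed by -0.39, and Atf6 by -0.30, which no longer passed with total reads only (-0.12, or -0.29 after the shift of all genes). Eif2ak3, which encodes PERK, measured 20.9 ± 1.96 in CuNZ@Gel and 18.7 ± 1.64 in Gel and did not pass (change 0.15). It passed with total reads only (0.33) and with mitochondrial and ribosomal RNA genes left out (0.28), and was at 0.15 after the shift in both. Bloc1s1, whose mRNA IRE1 is known to cut, averaged 14.6 ± 1.06 scaled CPM in CuNZ@Gel and 30 ± 1.02 in Gel, a change of -0.99. Creb3l1 and Creb3, ER-anchored relatives of ATF6, rose (0.91 and 0.24). Another relative, Creb3l2, was called lowered at a low level and near the threshold (-0.41, limma adjusted p = 0.046). With relative log expression scaling, upper-quartile scaling or limma-voom, 4 genes of this list were lowered in place of 5. Atf6b did not pass (0.03). Creb3 no longer passed without Gel replicate 2 (0.17), without CuNZ@Gel replicate 2 (0.17) or with no filter (0.24).

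Known targets of each branch were counted, and the XBP1 and ATF6 lists share Dnajb11, Dnajc3 and Pdia6. Of all tested genes, 32.2% were raised and 34.8% lowered. A difference between the branches was not tested. Of 6 XBP1 targets reported in mouse fibroblasts, which include Dnajb9 and Pdia6, 3 were raised and none lowered (median 0.11), against 5 and none with total reads only. With the length and GC correction, 2 of the 6 became lowered and 3 were raised. Edem1, a lectin that sends misfolded glycoproteins to degradation, averaged 436 ± 6.86 scaled CPM in CuNZ@Gel and 263 ± 6.60 in Gel, a change of 0.73 (adjusted p = 6.66e-10). Of 15 tested ATF6 targets, 7 of them among the 10 genes, 5 were raised and 3 lowered (median 0.03). Total reads only made this 9 and 2 (median 0.22). Hyou1, a nucleotide exchange factor of BiP, rose (0.35) and Sel1l, of the degradation ligase, fell (-0.31). Sil1, another exchange factor of BiP, counted with the other ER chaperones below, fell (-0.64). With total reads only Sel1l was no longer called (-0.12, or -0.30 after the shift). Manf, Creld2 and Sdf2l1, secreted or lumenal proteins often induced with BiP, did not pass (-0.13, -0.06 and -0.16). With total reads only they were at 0.06, 0.13 and 0.02, which is -0.12, -0.05 and -0.15 after subtracting the shift of all genes. Manf was lowered without CuNZ@Gel replicate 2 (-0.19). Dnajc3, a BiP co-chaperone that inhibits PERK, changed by 0.03. It was raised with total reads only (0.22, or 0.04 after the shift) and lowered after the length and GC correction (-0.20). All 17 tested genes of the PERK and ATF4 branch were lowered (median -1.41), and 16 with total reads only (median -1.23). Activity of PERK was not measured, and its part in these changes was not tested. Atf4 itself averaged 222 ± 16.2 scaled CPM in CuNZ@Gel and 805 ± 59.2 in Gel (change -1.85), and Nupr1, a stress-induced chromatin protein, averaged 14.5 ± 1.32 in CuNZ@Gel and 170 ± 5.02 in Gel (change -3.47).

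Of 20 other ER chaperones and co-chaperones tested, 4 were raised and 8 lowered (median -0.12), against 5 and 5 with total reads only (median 0.06). Without Gel replicate 2, 2 were raised and 7 lowered (median -0.18), and without Gel replicate 1 the median was -0.07. Dnajc10, a J-domain disulfide reductase, rose by 0.48, whereas Fkbp2, a prolyl isomerase of the ER, fell by 1.28 and Cnpy2 by 0.98. Among other disulfide isomerases and oxidases, 6 of 18 were raised and 6 lowered (33.3% each, median 0.01). This was near the 32.2% raised and 34.8% lowered of all tested genes. With total reads only, 9 were raised and 2 lowered. The oxidases Ero1b and Qsox1 rose (0.82 and 0.78), and Ero1a passed in 5 of 16 alternatives although not here (0.14, adjusted p = 0.0709). Erp29, an isomerase-like chaperone without a redox site, averaged 252 ± 16.7 scaled CPM in CuNZ@Gel and 535 ± 31.5 in Gel (change -1.08). P4hb, the founding disulfide isomerase, fell to 595 ± 1.75 scaled CPM in CuNZ@Gel, against 732 ± 1.44 in Gel (-0.30). It no longer passed with total reads only (-0.11, or -0.29 after the shift).

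Glycan transfer, trimming and the lectin cycle gave 8 raised (36.4%) and 7 lowered (31.8%) genes of 22 (median 0.02). Both shares were near those of all tested genes, 32.2% raised and 34.8% lowered. With total reads only, 12 were raised and 6 lowered. Edem1 and Ost4, a small subunit of the oligosaccharyltransferase, rose (0.73 and 0.81), while Krtcap2, another small subunit, and Mogs, the first glucosidase of the pathway, fell (-1.79 and -0.98). In ER-associated degradation, 10 of 22 were raised and 6 lowered (median 0.21), against 13 and 5 with total reads only, and the median was 0.09 without Gel replicate 1. Vcp, the ATPase that pulls substrates out of the membrane, averaged 499 ± 9.07 scaled CPM in CuNZ@Gel and 286 ± 14.5 in Gel (change 0.80). Its adaptor Nploc4 rose as well (0.64). Herpud2, the paralog of Herpud1, fell (-0.74), as did Aup1, which recruits a ubiquitin-conjugating enzyme (-0.89).

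At entry into the ER, 5 of 22 genes of the translocon, signal peptidase and signal recognition particle were raised and 10 were lowered (median -0.29). Scaling by total reads only gave 9 and 10 (median -0.11). Only 3 were raised without Gel replicate 1, and the median was -0.09 without CuNZ@Gel replicate 1. The translocon genes Sec61b and Sec61a1 fell (-0.92 and -0.64), and Srp14 and Tram1 rose (0.55 and 0.28). At ER exit and retrieval, 11 of 21 were raised and 5 lowered (median 0.18), against 14 and none with total reads only, and 3 were lowered without Gel replicate 1. The COPII coat genes Sec23a and Sec24d rose (0.83 and 1.07), while Preb, the exchange factor of SAR1, and the cargo receptor gene Tmed10 fell (-0.34 and -0.27). Both of these no longer passed with total reads only (-0.16 and -0.09, or -0.34 and -0.26 after the shift). Of the receptors that return escaped chaperones, Kdelr1 was lowered (-0.26), although no gene of this list was lowered with total reads only. Kdelr2 did not pass (-0.14). With total reads only it was at 0.05, or -0.13 after subtracting the shift of all genes, and it was lowered with crossed replicate numbers as a block. Kdelr3 had at most 2 reads in any library.

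**Figure D4:**
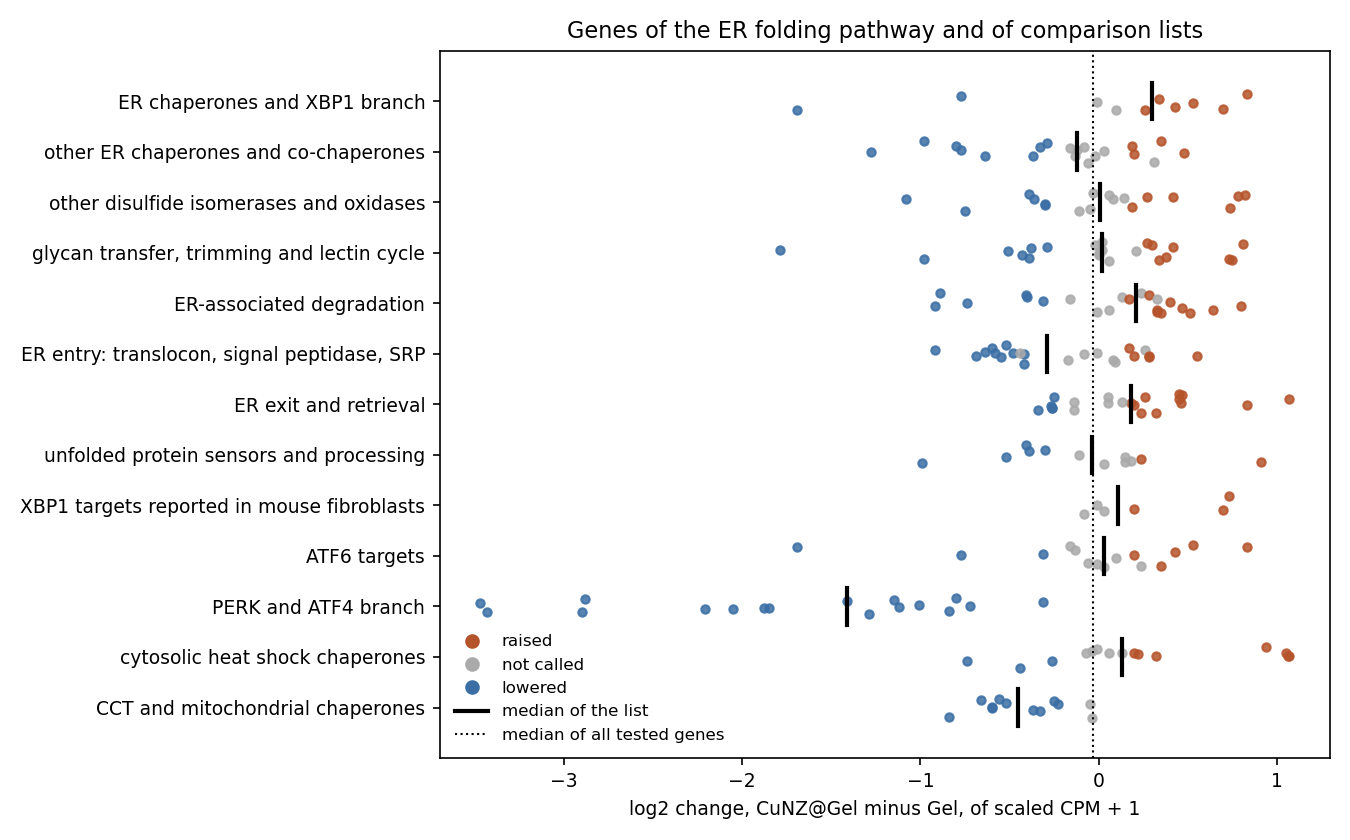
Change of each tested gene as log2 of scaled CPM + 1, CuNZ@Gel minus Gel, for the 10 genes in the top line and 12 further lists, with a point per gene, a bar at the median of the list and a dotted line at the median of all tested genes (-0.03). Genes of the PERK and ATF4 branch all lie below 0, with a median of -1.41, whereas the 10 genes lie between -1.69 and 0.83.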

How the data were processed

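TaKaRa RNAiso Plus was used to extract RNA, which was made into libraries with the CORALL RNA-seq V2 kit, per the labels' protocols. The deposited files hold 1 log2 value per gene symbol and library. The submitters' processing notes name fastp, STAR, Salmon, GATK and the genome build GRCm39. Tool versions and roles, the annotation, strand, molecular identifiers and the normalization used are not given in the sources available. Judged by the values, each is log2(x + 1), where x is CPM divided by 1 factor per library and not by gene length. In each library 93.0% to 93.7% of low values (x up to 1) were whole multiples of 1 step within 0.02 reads, which gave the recovered reads. A count of 0 allows up to 3 reads (95% confidence, counting error only), which was 0.189 and 0.191 scaled CPM in CuNZ@Gel and 0.217 and 0.234 in Gel.

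The deposited log2 values were tested with limma 3.58.1 (R 4.3.3), letting the variance follow a trend with mean level, for genes that reached 1 scaled CPM in 2 or more libraries. The model held the group alone, over all 4 libraries. P-values were two-sided and adjusted by the Benjamini-Hochberg method over all tested genes. The pseudocount of 1 understates the change of low genes. The procedure was tested on simulated data. The members and lists were chosen with earlier results of these data known. Beside the 10 genes, the text names the 2 raised and 2 lowered genes of each list with the smallest p. These were called genes whose groups did not overlap and whose higher mean reached 5 scaled CPM. It also names 17 anchor genes and, added after the values were seen, some relatives of named genes. Some genes of lists that only give context are left out. Of the tested genes, 94.3% had a length and GC content from the longest transcript in GENCODE vM21 (GRCm38). These served the length and GC correction, fitted with mgcv 1.9.3. No coordinates of the 2 builds were mixed. The other alternatives are named with their effect in the closing section.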

Additional observations from a re-analysis of the deposited data

How the results depend on the processing

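The counts of 6 raised and 2 lowered ER genes were the same with relative log expression and upper-quartile scaling, a pseudocount of 0.1, no filter, a stricter filter (5 scaled CPM), limma-voom on recovered reads, the length and GC correction and each library left out in turn. In those fits without 1 library, 2962 to 3399 of all genes were raised and 3426 to 3778 lowered. With total reads only 8 were raised, and with mitochondrial and ribosomal RNA genes left out 7, with 2 lowered in both. These settings moved the median of all genes by 0.18 and 0.13. Against a minimum fold of 1.5, only 1 of the 10 was raised (Calr) and 2 were lowered, and of all genes 1015 were raised and 940 lowered. That test asks for more than a difference from 0. With the replicate number as a block 6 were raised and 2 lowered, as were 3589 and 3900 of all genes. Same-numbered libraries deviated from their group means with a correlation of -0.116 across genes. This gives no sign that the numbers pair them, but 2 libraries per group cannot exclude pairing. With crossed numbers as a block, added after seeing the data, 7 were raised and 2 lowered, since Hspa5 passed. Over the fits without 1 library, list medians near 0 moved by more than 1.5 times: -0.01 to 0.05 for other isomerases and oxidases, 0.02 to 0.07 for ATF6 targets, -0.08 to -0.03 for sensors and -0.00 to 0.07 for the lectin cycle. In such a fit, the lone library of a group is assumed to vary like the others.

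Signs turned for some genes that did not pass. Less the shift of all genes, Pdia6 was at 0.00 and Creld2 at -0.05 with total reads only. Pdia6 was 0.02 with relative log expression and upper-quartile scaling, 0.18 with total reads only, 0.13 with mitochondrial and ribosomal RNA genes left out, 0.11 after the length and GC correction, and -0.08 to 0.07 without 1 library. Creld2 was 0.13, 0.07 and 0.22 in the last 3 of these settings with all libraries, and turned to 0.06 without Gel replicate 1 and 0.04 without CuNZ@Gel replicate 1 (range without 1 library -0.18 to 0.06). Total reads only gave 0.02 for Sdf2l1, 0.06 for Manf and 0.05 for Kdelr2, signs that this scaling's shift of all genes gives: less the shift, they were at -0.15, -0.12 and -0.13. The length and GC correction gave 0.18 for Sdf2l1, 0.01 for Manf and -0.20 for Dnajc3. The change had a Pearson r of 0.274 with log2 length across genes, which are not independent. Depth limits Dnajb9 most, with 167 to 394 reads per library.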

Other observations

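Relatives of the ER chaperones in other compartments moved in both directions. This family was put together after the values had been seen. Of the HSP90 family, the inducible cytosolic Hsp90aa1 averaged 1914 ± 46.9 scaled CPM in CuNZ@Gel and 997 ± 10.3 in Gel (SD, n = 2 each), a change of 0.94. The constitutive Hsp90ab1 changed by -0.44, with 2134 ± 48.1 scaled CPM in CuNZ@Gel and 2906 ± 162 in Gel. Trap1, the mitochondrial member, changed by -0.56, against 0.43 for Hsp90b1 of the ER. Of the HSP70 family, the mitochondrial Hspa9 averaged 793 ± 9.34 scaled CPM in CuNZ@Gel and 1417 ± 41.7 in Gel (change -0.84), and the cytosolic Hspa8, whose reads could be divided among processed pseudogenes, changed by -0.26. The inducible cytosolic Hspa1b went the other way, with 6.87 ± 1.24 scaled CPM in CuNZ@Gel and 2.74 ± 0.124 in Gel (change 1.07). Its value is uncertain, since the near-identical copy Hspa1a is listed at 0 in all 4 libraries. All 7 of these changes passed the limma test. Hspa5 of the ER lay at 0.10 and did not pass. Of 15 cytosolic heat shock chaperones, 7 were raised and 3 lowered (median 0.13), against 10 and 2 with total reads only and 6 and 7 after the length and GC correction, and the median was 0.07 without CuNZ@Gel replicate 2. Of 12 CCT and mitochondrial chaperones none was raised and 10 were lowered (median -0.45), against 2 and 8 with total reads only. In the cytosolic list the co-chaperone Hsph1 rose (1.06) and Fkbp4 fell (-0.74), and Cct5 of the CCT ring fell (-0.66).

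The ERSE motif was found in 30 further gene symbols, of which 9 were tested. Of these 2 were raised and 3 lowered, with a median change of 0.03. Ero1b (0.82) and Adcy3 (1.19) were the raised genes, and Hnrnpa3 (-0.63), Pan2 (-0.62) and Alg12 (-0.43) the lowered ones. Creld2, Dnajc3, Syvn1 and Acacb did not pass (-0.06, 0.03, 0.24 and 0.47). Adcy3 passed the filter on low values only through CuNZ@Gel, with 2.65 and 1.84 scaled CPM there and 0.362 and 0.467 in Gel. So did Acacb (1.26 and 1.08, against 0.87 and 0.311 in Gel). The counts and the median of this set thus rest in part on the filter.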
